A study of Mus musculus with 4 samples.

Results

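The 9 genes described here encode proteins of the epithelial tight junction: the claudins Cldn1, Cldn3, Cldn4, Cldn6, Cldn7 and Cldn12, occludin (Ocln), the junctional adhesion molecule F11r and the scaffold ZO-1 (Tjp1). They were listed by gene symbol, as 9 of the 34721 entries of the expression table, and were read across all 4 cell lines. Tight junctions seal the space between neighbouring epithelial cells near their apical side. Claudins form the sealing strands, in which some members close the paracellular path and others make it selective for ions, while occludin and junctional adhesion molecules lie in or beside the strands and ZO proteins tie them to actin. In stratified mucosa and in squamous carcinomas the claudin repertoire and the location of ZO-1 are used as readouts of epithelial state.

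The study derived 4 oral cancer cell lines from male C57BL/6 mice whose buccal mucosa had been painted by cotton swab with the carcinogen 7,12-dimethylbenzanthracene (DMBA). AOC3 came from the oral tumor of mouse 3 and AOC3-LN from its lymph node metastasis. AOC11 and AOC11-LN came from the oral tumor and the node of mouse 11. The paper lists a longer carcinogen challenge for the AOC11 lines than for the AOC3 lines. Mouse and length of treatment therefore cannot be told apart. From isolation onward all 4 lines carry the same history. Cells were cultured, passed once under the skin of C57BL/6 mice, depleted of tumor-associated fibroblasts and grown in DMEM/F12 with fetal bovine serum. Each line is 1 library of mRNA, so a difference between 2 lines has no replicate check, and mouse and line cannot be told apart. Levels are given as FPKM (fragments per kilobase of transcript scaled to the mapped fragments of the library), which is scaled per length and lets genes be set side by side. Differences are given on the log2(FPKM + 1) scale after quantile normalization, which understates the change of genes near or under 1 FPKM, and a log2 difference past 1 in either direction was counted.

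The labels name oral cancer cells, and epithelial markers were present in every line. The 6 epithelial markers (Epcam, Cdh1, Krt5, Krt14, Krt8 and Krt18) summed to between 2736 and 3492 FPKM. Krt5 was low in both lines of mouse 11, at 4.99 FPKM in AOC11 and 17.0 in AOC11-LN. It read 499 in AOC3 and 275 in AOC3-LN. The 4 endothelial markers summed to 0.251 to 0.384 FPKM, with the endothelial claudin Cldn5 listed at 0 in each line, and the 5 fibroblast markers to 0.237 to 0.937 FPKM. Of the 4 leukocyte markers, Cd3e and Adgre1 were listed at 0 in each line, Ptprc reached at most 0.0640 FPKM and the lysosomal gene Cd68 read 4.45 to 13.0 FPKM. Each library was scaled to an estimated 28300000 to 33900000 fragments.

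Of the 25 claudin genes in the table, 7 reached 1 FPKM in at least 1 line and 4 reached 10 FPKM, namely Cldn3, Cldn4, Cldn7 and Cldn12. The 9 genes include 6 of the 7, and the other was Cldn23 with 4.72 FPKM in AOC3 and 2.34 in its lymph node line, and 2.17 in AOC11 and 3.39 in its lymph node line. The proteins of most claudins end in a tyrosine and a valine, the docking site for the PDZ domains of ZO proteins. The last 30 coding bases of the claudins, without the stop codon, are shown because this end joins the claudins to Tjp1. They were taken from the GENCODE M21 transcripts, and capitals mark the last pair of codons.
Cldn1: ccaacaccttctagtgggaaagacTATGTG
Cldn3: ggcaccgcctacgaccgcaaggacTACGTC
Cldn4: gcccgctctgtccccgccagcaacTATGTG
Cldn6: ccctccgaatatcccaccaagaatTATGTG
Cldn7: cccaagtccaattcctccaaggaaTACGTG
Cldn12: atcgacattccagtagtctcacacAGCACT
In 5 of the 6 genes the capitals read a tyrosine codon (TAT or TAC) followed by a valine codon. Cldn12 ends in AGC ACT, codons for serine and threonine, and lacks this end. Among the 15 pairs of these claudins, coding sequences were most alike between Cldn3 and Cldn4, with 69.4% identical bases in a global alignment, and least alike between Cldn7 and Cldn12, with 46.5%. In mm10 (GENCODE M21), Cldn4 lies at chr5:134945119-134946934, Cldn12 at chr5:5489537-5514958, Cldn1 at chr16:26356642-26371841, Cldn6 at chr17:23679249-23682446 and Cldn7 at chr11:69964779-69967885.

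Cldn3, a sealing claudin of simple and glandular epithelia, had the widest range of the 9 genes. Its level was 197 FPKM in AOC3 and 242 in its lymph node line, and 0.0550 in AOC11 and 186 in its lymph node line. AOC11 stood apart from the other 3 lines, which lay within the same order of magnitude. In bulk RNA, fewer cells with the transcript and less transcript per cell cannot be told apart. The AOC11 value corresponded to about 2 fragments, with an exact 95% Poisson interval of 0.00666 to 0.199 FPKM, against about 7239 fragments in AOC3, 7546 in AOC3-LN and 6602 in AOC11-LN (intervals here cover counting error only). The FPKM ratio of AOC11-LN to AOC11 was 3373, with a counting interval of 933 to 27859. That of AOC3 to AOC11 was 3573, with an interval of 989 to 29512. On the log2 scale AOC11-LN exceeded AOC11 by 7.43 and AOC3 exceeded AOC11 by 7.54, which in both comparisons placed Cldn3 at rank 2 from the top of 11380 protein-coding genes. Among all 14165 genes it ranked 13 and 15. Between the 2 lymph node lines the difference was 0.40, and between AOC3-LN and AOC3 it was 0.28.

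**Figure D1:**
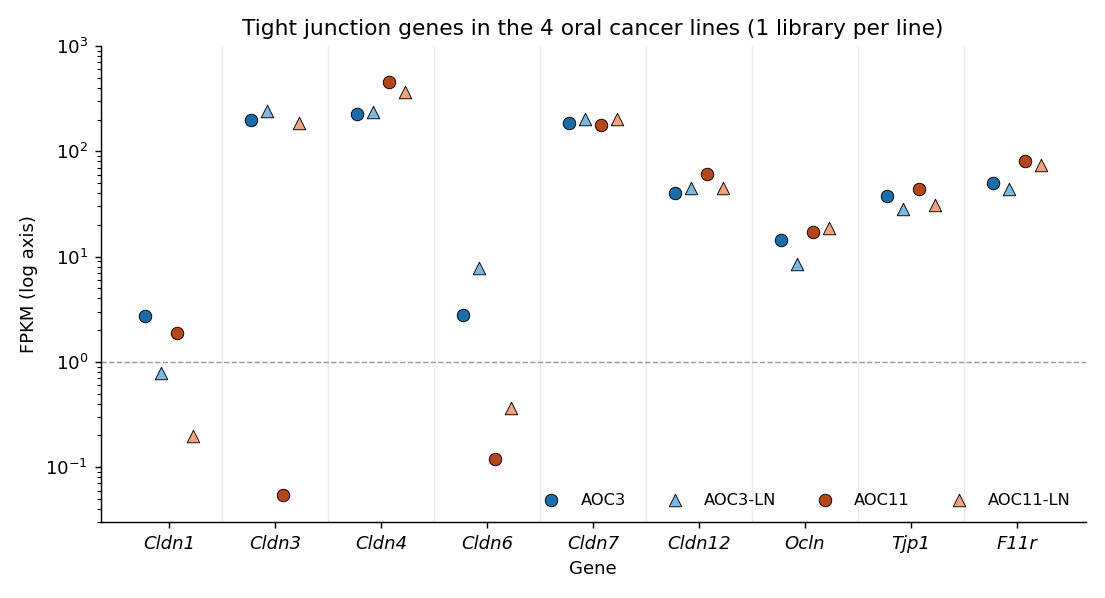
FPKM on a log axis for the 9 tight junction genes; each point is the single library of a line (circles primary, triangles lymph node; blue mouse 3, red mouse 11), and the dashed line marks 1 FPKM. Cldn3 in AOC11 lies at 0.0550 FPKM while its other 3 points lie between 186 and 242, and the points of Cldn7 lie between 179 and 202.

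The number of genes with such a profile was counted after the Cldn3 values had been seen. Of 5827 protein-coding genes at 10 FPKM or more in the other 3 lines, Cldn3 was the 1 gene under 0.1 FPKM in AOC11. The same count was 0 of 5756 for AOC3, 1 of 5930 for AOC3-LN (Gm10181) and 0 of 5885 for AOC11-LN. Each log2 profile over the 4 lines was then centred on its own mean. Among 9329 other protein-coding genes at 5 FPKM or more in at least 1 line, the centred profiles closest to that of Cldn3 were those of Pdpn, Magohb and Lars2, at Euclidean distances of 3.09, 3.24 and 3.46 log2 units. Pdpn, which encodes podoplanin, a membrane glycoprotein of squamous carcinoma margins, read 18.2 FPKM in AOC3 and 31.2 in its lymph node line, and 0.468 in AOC11 and 28.5 in its lymph node line. The mRNA-binding gene Magohb read 34.1, 33.0, 1.37 and 47.4 FPKM in the same order, and the mitochondrial leucyl-tRNA synthetase gene Lars2 read 379, 533, 38.7 and 507. Centring leaves out the level of a gene, so this likeness is one of shape. The choice by likeness to Cldn3 favours genes lowest in AOC11, as all 3 were. None of the 3 came as close to 0 as Cldn3.

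Cldn4, which limits the passage of sodium ions and lies 39.3 kb from Cldn3 on chromosome 5, did not share this profile. It read 225 FPKM in AOC3 and 235 in its lymph node line, and 450 in AOC11 and 365 in its lymph node line. Both AOC11 lines lay above both AOC3 lines, and AOC11, the line with almost no Cldn3, had the highest value. AOC3 was lower than AOC11 by 0.96 on the log2 scale, short of the threshold, and the lymph node lines of the 2 mice differed by 0.62 in the same direction. Within mice the lymph node line differed from the primary line by 0.068 (mouse 3) and -0.27 (mouse 11).

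The 250 bases before the annotated start of these 2 neighbours are shown because the genes lie side by side, are the closest pair in coding sequence and read furthest apart in AOC11. They are RefSeq windows on GRCm38.p6, written 5′ to 3′ on the strand of the gene, and capitals mark matches to any of 5 short motifs.
Cldn3, chr5:134985964-134986213, plus strand: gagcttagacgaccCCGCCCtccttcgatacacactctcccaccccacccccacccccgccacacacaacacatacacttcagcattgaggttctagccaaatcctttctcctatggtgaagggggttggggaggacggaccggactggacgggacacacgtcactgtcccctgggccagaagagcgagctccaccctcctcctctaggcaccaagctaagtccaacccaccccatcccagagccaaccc
Cldn4, chr5:134946935-134947184, minus strand: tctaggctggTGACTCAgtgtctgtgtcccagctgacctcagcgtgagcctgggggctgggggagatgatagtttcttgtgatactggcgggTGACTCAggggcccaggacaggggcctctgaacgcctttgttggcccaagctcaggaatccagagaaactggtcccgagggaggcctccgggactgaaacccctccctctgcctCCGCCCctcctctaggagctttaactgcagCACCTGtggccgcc
The motifs, chosen after the values had been seen, were the E-box CACCTG, the AP-1 site TGANTCA, the GC box GGGCGG, the CCAAT box and the grainyhead-type site AACNNGTT, searched on both strands. Of 32851 windows of this length, 17.2% held the E-box, 6.75% the AP-1 site, 32.7% the GC box, 33.8% the CCAAT box and 3.64% the grainyhead-type site. The Cldn3 window held 1 GC box, on the opposite strand, at position -236 relative to the start. The Cldn4 window held 2 AP-1 sites, at positions -240 and -158. It also held 1 GC box at -44, again on the opposite strand, and 1 E-box at -14, none of them overlapping. CG dinucleotides numbered 9 in the Cldn3 window and 7 in the Cldn4 window, against a median of 6 over all windows. These are letter matches, and binding at them was not measured here.

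The genes on either side of Cldn3 were read for their levels. Cldn3 itself lies at chr5:134986214-134987472 on the plus strand (mm10, GENCODE M21), has 1 annotated transcript of 1259 bases, and shares 40 bases with the antisense gene Wbscr25. Of the 9 protein-coding genes listed within 150 kb, 8 reached 1 FPKM, and apart from Cldn3 the differences between AOC11-LN and AOC11 ran from -0.44 to 1.54. The 1 other gene past 1 was Mettl27, on the far side of Cldn4, with 15.8 FPKM in AOC3 and 9.32 in its lymph node line, and 6.47 in AOC11 and 21.02 in its lymph node line. Abhd11, the next gene on the other side of Cldn3, read 44.02, 48.4, 92.4 and 68.6 FPKM in the same order and was highest in AOC11. Both flanking genes were read at 450 and 92.4 FPKM in the line in which Cldn3 was at 0.0550.

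**Figure D2:**
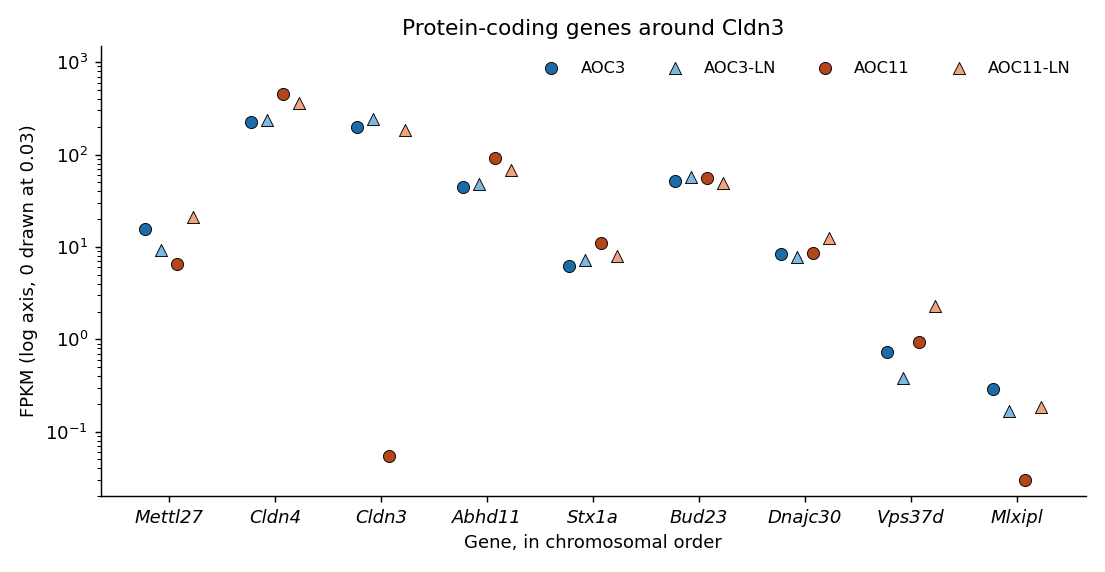
FPKM (log axis, a value of 0 drawn at 0.03) of the 9 listed protein-coding genes within 150 kb of Cldn3, in chromosomal order; each point is 1 line. In AOC11 Cldn4 lies at 450 FPKM and Abhd11 at 92.4, on either side of Cldn3 at 0.0550.

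Cldn7, a basolateral claudin that also binds Epcam, was the most even of the 9 genes. It read 187 FPKM in AOC3 and 202 in its lymph node line, and 179 in AOC11 and 202 in its lymph node line, and its highest value was 1.13 times its lowest. Cldn12, the member without the tyrosine and valine end, read 40.2, 44.5, 61.2 and 44.8 FPKM in the same order. AOC11 was again the highest line, and the other 3 lines lay between 40.2 and 44.8.

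The sum of FPKM over all 25 claudins was 660 and 736 in the primary and node line of mouse 3, and 696 and 803 in those of mouse 11. Cldn3 made up 29.8%, 32.9%, 0.00791% and 23.1% of these sums. Cldn4 made up 34.1%, 31.9%, 64.6% and 45.4%. The joint level of Cldn3 and Cldn4 was 421, 477, 450 and 550 FPKM, so AOC11 lay between the AOC3 lines in this sum although nearly all of it was Cldn4. Cldn7 held between 25.2% and 28.3% of claudin FPKM in every line, and all claudins other than these 3 and Cldn12 held between 0.745% and 1.74%. FPKM is relative to each library, so these shares say nothing of the number of transcripts per cell.

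**Figure D3:**
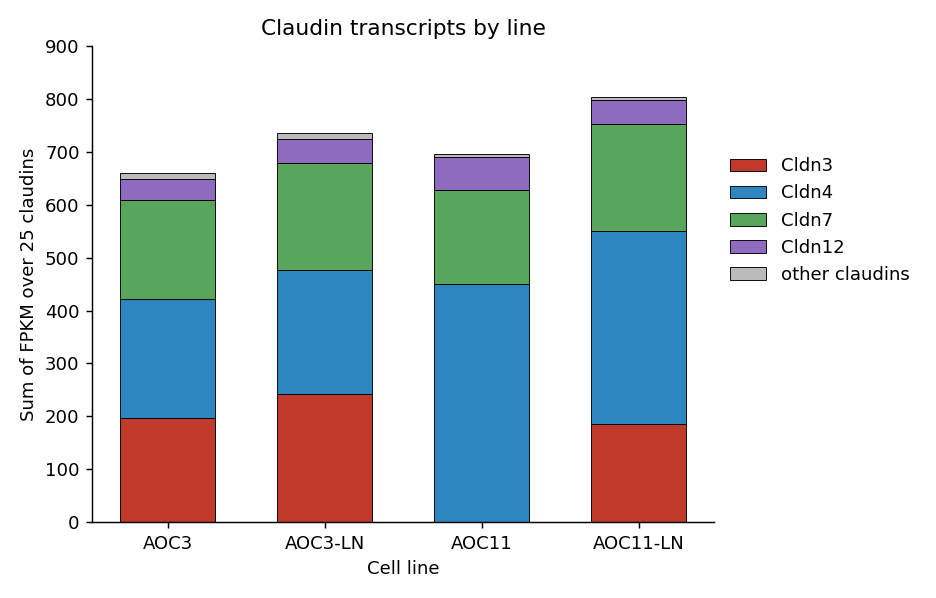
Sum of FPKM over the 25 claudin genes of the table in each line (1 library each), with segments for Cldn3, Cldn4, Cldn7, Cldn12 and all others. The bar of AOC11 reaches 696 FPKM with no visible Cldn3 segment and a Cldn4 segment of 450 FPKM.

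Cldn1, the main barrier claudin of stratified epithelium, was low in all lines. It read 2.75 FPKM in AOC3 and 0.788 in its lymph node line, and 1.88 in AOC11 and 0.199 in its lymph node line. In each mouse the lymph node line was below the primary line, and both lymph node lines were below both primary lines. The log2 difference was -0.96 in mouse 3, just short of the threshold, and -1.40 in mouse 11; the linear ratios of primary to lymph node line were 3.50 and 9.43. Without quantile normalization the mouse 3 difference was -1.07 and past the threshold. These values rest on about 286 to 369 fragments in AOC3 and at most about 25.8 in AOC11-LN, depending on which of 2 transcripts is counted.

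Cldn6, a claudin of embryonic epithelium that is low in most adult tissues, separated the mice. It read 2.79 FPKM in AOC3 and 7.79 in its lymph node line, and 0.118 in AOC11 and 0.363 in its lymph node line. Both AOC3 lines lay above both AOC11 lines, and in each mouse the lymph node line read higher, by 2.79 times in mouse 3 and 3.06 times in mouse 11. On the log2(FPKM + 1) scale these were differences of 1.32 and 0.16, since both AOC11 lines were under 1 FPKM. The AOC11 value rested on about 3.58 to 5.76 fragments and the AOC11-LN value on about 10.8 to 17.2. The mouse 11 ratio therefore rests on few fragments, and no counting interval was set on it. Cldn9, 137 bases away from Cldn6, stayed under 1 FPKM in all lines, at 0.649, 0.329, 0.0704 and 0.815 FPKM.

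Occludin (chr13:100496507-100552718), a membrane protein of the MARVEL family, read 14.3 FPKM in AOC3 and 8.52 in its lymph node line, and 16.9 in AOC11 and 18.8 in its lymph node line. AOC3-LN was the lowest line, 0.60 log2 units below AOC3 and 0.94 below AOC11-LN, and neither difference passed the threshold. F11r (chr1:171437535-171464603), the junctional adhesion molecule JAM-A, read 50.3, 43.6, 81.5 and 74.3 FPKM, with both AOC11 lines above both AOC3 lines. The scaffold Tjp1 (chr7:65296165-65527781), which overlaps 3 other annotated entries, read 37.6, 28.4, 43.9 and 30.8 FPKM. It was lower in the lymph node line of each mouse, by log2 differences of -0.37 and -0.48, while the mice overlapped.

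**Figure D4:**
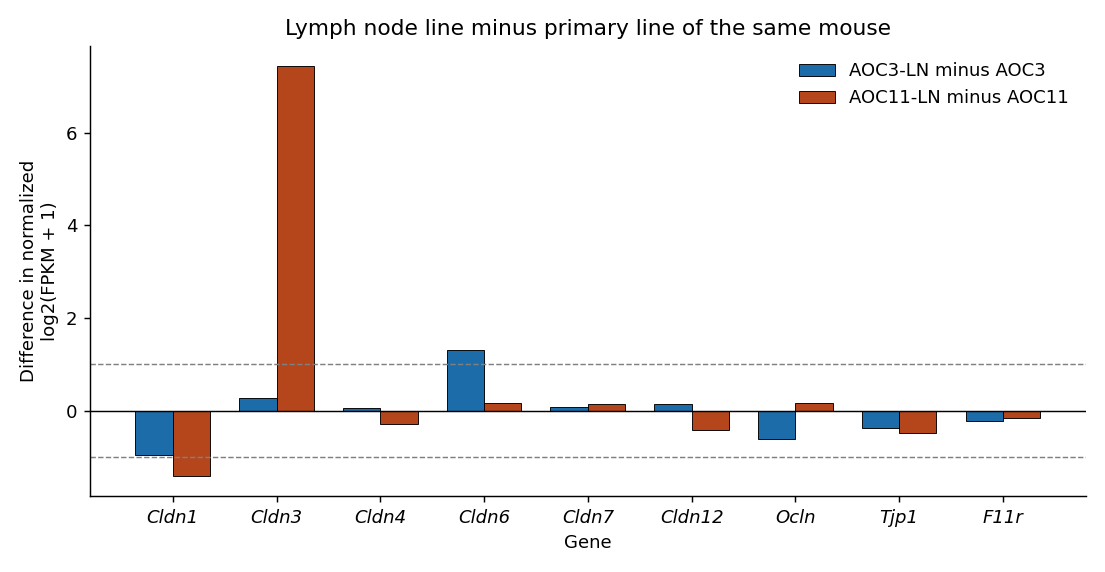
Difference between the lymph node line and the primary line of the same mouse in normalized log2(FPKM + 1) for the 9 genes (blue mouse 3, red mouse 11); each bar is a difference of 2 libraries, with no error bar because each line has 1, and dashed lines mark a difference of 1. Cldn3 reaches 7.43 in mouse 11 against 0.28 in mouse 3, and Cldn1 lies at -0.96 and -1.40.

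The lymph node lines were compared with the primary lines to ask whether junction genes differ between the sites. Between AOC3-LN and AOC3, 1 of the 9 genes was past 1 (Cldn6, higher), against 5.53% of the 14165 genes at 1 FPKM or more in at least 1 line. Between AOC11-LN and AOC11, 2 were past 1 (Cldn3 higher, Cldn1 lower), against 8.11% of genes. The median over the 9 genes was 0.068 in mouse 3 and -0.15 in mouse 11, beside medians over all genes of 0.02 and -0.02. The differences of the 2 mice had opposite signs for 3 of the 9 genes and for 52.7% of all genes. Cldn1, Tjp1 and F11r read lower in both lymph node lines, and Cldn3, Cldn6 and Cldn7 read higher in both, with differences from 0.09 upward.

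The lines of the 2 mice were compared at each site and then together. Between AOC3 and AOC11, 2 of the 9 genes were past 1 (Cldn3 and Cldn6, both higher in AOC3), against 11.9% of genes. Between AOC3-LN and AOC11-LN only Cldn6 was past 1, by 2.85, against 16.3% of genes. For the means of the lines of each mouse, 2 of the 9 genes were past 1, Cldn3 by 3.97 and Cldn6 by 2.28, against 11.1% of genes. The Cldn3 mean rested on AOC11 alone, since the difference without AOC11 was 0.26. In FPKM, 6 of the 9 genes did not overlap between the mice, with Cldn3 and Cldn6 above in the AOC3 lines and Cldn4, Cldn12, Ocln and F11r below, against 53% of all genes. For Cldn12 this rested on 44.5 against 44.8 FPKM in the lymph node lines, and after normalization that difference turned to 0.013. For Cldn3 the margin was also narrow, with 197 FPKM in AOC3 against 186 in AOC11-LN.

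limma was fitted to all 14165 genes with the lines of a mouse in place of replicates, so it describes these lines and not mice. None of the 9 genes passed an adjusted p of 0.05, against 0.205% of all genes (29 genes), and 3 had an unadjusted p under 0.05 (Cldn4, Cldn6 and F11r), against 18.7% of all genes. Cldn6 was higher in the AOC3 lines by 2.28 ± 0.49 (SE), with an adjusted p of 0.133 by limma with Benjamini-Hochberg adjustment. Cldn4 differed by -0.79 ± 0.18 (SE; limma adjusted p = 0.138) and F11r by -0.66 ± 0.18 (SE; limma adjusted p = 0.172). Cldn3 differed by 3.97 ± 2.35 (SE; limma adjusted p = 0.423), since the AOC11 lines lay far apart. For the other 5 genes, from Ocln at -0.56 to Cldn1 at 0.49, the limma adjusted p ranged from 0.346 to 0.928. A p above the threshold does not show that the lines are alike.

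The other genes of the junction were read from lists by role, 70 genes in all, of which 46 reached 1 FPKM and 39 reached 10 FPKM. For the means of the lines of each mouse, 2 of the 46 were higher by more than 1 in the AOC3 lines and 1 was lower, against 11.1% of all genes past 1 either way, and the median difference was 0.01. Cxadr, the coxsackievirus and adenovirus receptor of the JAM family, read 34.8 FPKM in AOC3 and 35.8 in its lymph node line, and 16.2 in AOC11 and 15.6 in its lymph node line, a mean difference of 1.17. The scaffold Magi1 read 21.4, 21.7, 9.40 and 11.1 FPKM, a difference of 1.08. Both genes were close between the lines of a mouse and differed between the mice. The tetraspanin Cd81 was lower by 2.49 in the mean, and this rested on AOC3-LN with 6.13 FPKM, while AOC3 read 80.1.

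All 11 scaffold genes reached 1 FPKM. The polarity scaffold Patj read 18.0, 19.2, 18.4 and 19.4 FPKM in AOC3, AOC3-LN, AOC11 and AOC11-LN. Cingulin (Cgn), which links ZO proteins to RhoA signalling, read 19.0, 12.7, 33.9 and 26.5 FPKM, so both AOC11 lines were higher and each lymph node line was below its primary line, as for F11r and Tjp1 within mice. Between AOC3 and AOC11, 1 scaffold was lower by more than 1 (Magi3, 5.14 against 11.6 FPKM) and 1 was higher (Magi1). Of all genes, 11.9% were past 1 either way in this comparison.

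In the MARVEL list, the tricellular protein Marveld2 read 11.8, 11.99, 19.3 and 18.8 FPKM, and Marveld3 read 7.88, 6.14, 3.67 and 13.1. Between AOC11-LN and AOC11, 3 of the 46 list genes were past 1 upward and 1 downward, against 8.11% of all genes either way. Marveld3 was one of those upward, by 1.52, with the serine protease Prss8 (2.50 to 7.43 FPKM) and the atypical protein kinase C gene Prkcz (6.64 to 15.0 FPKM). Prkci, the other atypical protein kinase C gene of the polarity list, went the opposite way, from 76.2 to 26.6 FPKM. Among the angulins, which mark tricellular contacts, Lsr read 60.7, 66.9, 83.8 and 99.5 FPKM. Between AOC3-LN and AOC3 the list genes past 1 were Jam2 upward (0.597 to 3.32 FPKM) and Cd81 and Amot downward, against 5.53% of all genes.

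Levels of the claudin partners and proteases differed widely, with Prss8 and Cd81 given above at the low end. Epcam, the adhesion protein that binds Cldn7, read 518, 509, 416 and 493 FPKM. The matriptase gene St14, whose protease cleaves Epcam, read 95.8, 75.2, 114 and 104 FPKM. Spint2, an inhibitor of matriptase and prostasin, read 226, 211, 189 and 301 FPKM. Neither Epcam nor St14 showed the near absence that Cldn3 had in AOC11. By the count given above, the same held for every other protein-coding gene at 10 FPKM or more in the other lines, so it is not particular to these genes.

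**Figure D5:**
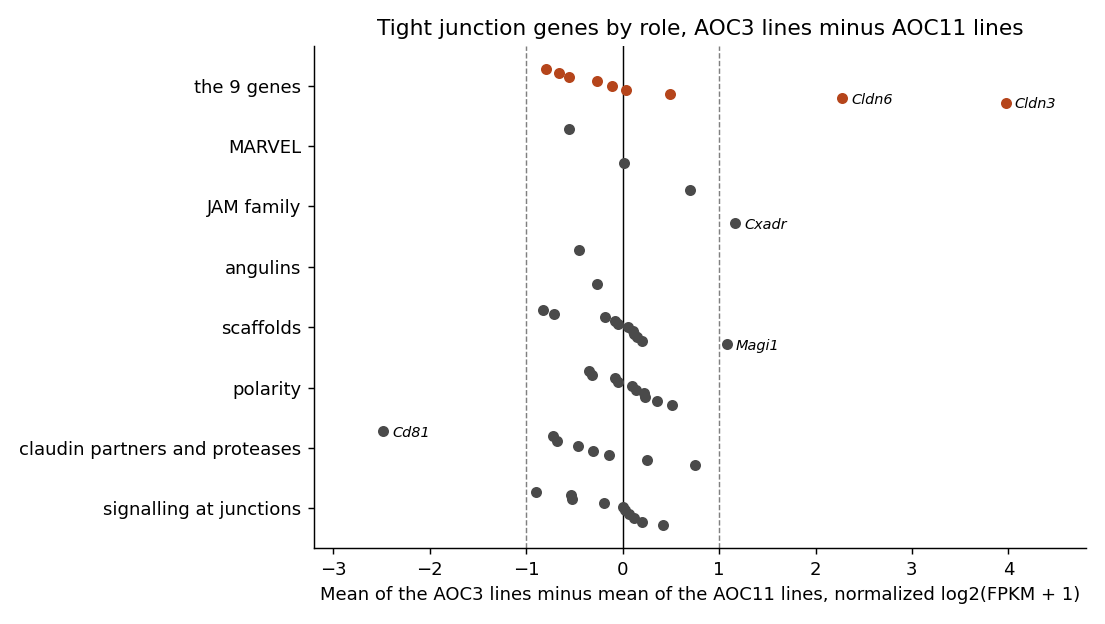
Mean of the AOC3 lines minus mean of the AOC11 lines in normalized log2(FPKM + 1), 1 point per gene at 1 FPKM or more, in rows by role; dashed lines mark a difference of 1 and genes past it are named. Of the 9 genes Cldn3 lies at 3.97 and Cldn6 at 2.28; Cd81 at -2.49 is the lowest point.

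Transcription factors and splicing factors known to act on epithelial junction genes were read as well, and 14 of 15 reached 1 FPKM. Between AOC11-LN and AOC11, 1 was past 1 (Twist1, higher), against 8.11% of all genes. Between AOC3 and AOC11, Twist1 and Zeb2 were higher and Grhl1 was lower, against 11.9% of all genes past 1. Between AOC3-LN and AOC11-LN, Klf4 and Klf5 were higher and Grhl3 and Snai1 lower, against 16.3% of all genes past 1. Grhl2, an activator of claudin genes, read 21.1, 18.8, 18.8 and 19.5 FPKM in AOC3, AOC3-LN, AOC11 and AOC11-LN, and the epithelial splicing factor Esrp1 read 56.8, 53.5, 56.9 and 54.2. Both were nearly level, AOC11 included. Klf4 read 8.09, 17.7, 5.17 and 5.39 FPKM, and was higher in AOC3-LN than in AOC3 by 1.12. Twist1, a mesenchymal transcription factor, read 16.4, 14.5, 4.69 and 16.0 FPKM and was lowest in AOC11, which AOC11-LN exceeded by 1.56. Zeb2, a repressor of epithelial genes, was also lowest in AOC11, at 0.451 FPKM against 2.45, 2.88 and 1.93 in AOC3, AOC3-LN and AOC11-LN. Others did not share this order: Grhl1, a grainyhead factor, was highest in AOC11, at 0.184, 0.628, 2.51 and 1.89 FPKM in AOC3, AOC3-LN, AOC11 and AOC11-LN, and the repressor Snai1 was lowest in AOC3-LN, at 6.25, 2.41, 5.96 and 7.05. The epithelial factors Elf3 and Klf5 read 42.5, 25.4, 28.8 and 32.5 FPKM and 41.4, 36.6, 26.8 and 17.8, and Esrp2 read 8.42, 8.45, 14.1 and 17.0. The part of these genes in the levels of the claudins was not tested.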

How the data were processed

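mRNA of 4 cultured lines was sequenced from stranded, paired-end libraries, 1 per line. The authors trimmed reads with Trim Galore, mapped them to mm10 with TopHat2 and estimated the deposited FPKM values with Cufflinks, using GENCODE M21 and the default settings. Tool versions are not given in the sources used here, and no strand setting is named beyond those defaults. Log2 transformation and quantile normalization, named in the methods, were absent from the deposited columns and were applied here to FPKM + 1. Genes at 1 FPKM or more in at least 1 line were kept. The 9 genes, the gene lists and the comparisons were chosen with earlier results of these data known. All 9 genes passed this filter, as did 14165 entries. All members of each list were counted, and list genes were named at 10 FPKM or more in any line or past a log2 difference of 1 in the comparison described. Fragment numbers were estimated from whole steps in low FPKM values of single-transcript genes: 63.6% to 67.2% of such values lay within 0.1 of a whole number, against 20% by chance. limma 3.58.1 in R 4.3.3 (lmFit, eBayes with trend, Benjamini-Hochberg adjustment) compared the lines of the 2 mice and was tested on simulated data. Python 3.11.15, pandas 2.3.3 and Biopython 1.88 were used for the rest. Alternatives varied the pseudocount, normalization, filter, threshold, site term, gene set and lines. The promoter motifs, the genes around Cldn3 and the count of genes near 0 in 1 line were added after the values had been seen. The values of a few list genes are not reported here.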

Additional observations from a re-analysis of the deposited data

Results flagged for a closer look

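For 3 of the 9 genes the lymph node line and the primary line differed in opposite directions in the 2 mice; these differences were not tested, because each line is 1 library, and opposite signs were found for 52.7% of all genes. Cldn4 differed by 0.068 between AOC3-LN and AOC3 and by -0.27 between AOC11-LN and AOC11. Cldn12 differed by 0.15 in mouse 3 and by -0.41 in mouse 11. Ocln differed by -0.60 in mouse 3 and by 0.17 in mouse 11. All values are on the normalized log2(FPKM + 1) scale, and none passed a difference of 1.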

How the results depend on the processing

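The number of the 9 genes past a log2 difference of 1 between AOC3-LN and AOC3 was 1, and became 2 with a pseudocount of 0.1, without quantile normalization or with scaling by the median, Cldn1 being added each time. With a 1.5-fold threshold it was 3. Between AOC11-LN and AOC11 the count was 2, and 1 with a 5 FPKM filter, which drops Cldn1. Between AOC3 and AOC11 it was 2, and 4 at 1.5-fold. Between AOC3-LN and AOC11-LN it was 1, but 3 with a pseudocount of 0.1, 2 without quantile normalization and 5 at 1.5-fold. For the means of the lines of each mouse it was 2, but 3 with a pseudocount of 0.1, where Cldn1 moved from 0.49 to 1.16, and 4 at 1.5-fold. Cldn3 stayed past 1 under every alternative of the comparisons of AOC11-LN or AOC3 with AOC11, and Cldn6 under every alternative of AOC3-LN with AOC3.

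None of the 9 genes passed the limma threshold under any alternative. This includes the fit with site as a term, which pairs the lines by site. The lowest adjusted p of any was 0.067, for Cldn6 with protein-coding genes only. Over all genes limma called 29, against 256 with protein-coding genes only, 50 with the 5 FPKM filter, 31 with the site term, 0 without a filter and 0 to 4 when a line was left out. Leaving out a line left 1 line for its mouse, which was assumed to vary like the others. Without AOC11 the Cldn3 difference was 0.26, and without AOC11-LN it was 7.69 (limma adjusted p = 0.110). Over the fits that left out a line, some differences changed sign, those near 0 among them. Cldn7 ranged from -0.033 to 0.10, with -0.013 without AOC3-LN. Tjp1 ranged from -0.36 to 0.13, with 0.070 without AOC3-LN. Cldn1, at 0.49 with all lines, was not near 0 and ranged from -0.21 without AOC11-LN to 1.21 without AOC11. Depth limits Cldn3 and Cldn6 in AOC11, which rest on a few fragments each.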
